A study of Homo sapiens with 6 samples.

Results

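Regions that carried an H3K9me3 peak with both PURPL guides and no peak with the control guide were collected from 3 peak lists. H3K9me3 is the trimethylation of lysine 9 on histone H3. The cells were BJ, an established human line of fibroblasts from skin. They carried CRISPR interference, which uses a guide RNA to direct a transcriptional repressor, with a non-PURPL control guide or with guide 1 or guide 2, which target PURPL. The product of this gene is a long non-coding RNA, and p53 activates its transcription. A guide 1 peak and a guide 2 peak that shared at least 1 bp on chromosomes 1 to 22 gave an intersection, and the intersection was kept when neither peak overlapped a control peak. The members were thus chosen by measured values, the peak calls of all 3 lists. This left 363 regions of 8673 intersections, or 4.19%. They were made from 363 guide 1 peaks and 361 guide 2 peaks. Each overlapping pair counted as 1 intersection, so a peak that met several peaks of the other guide counted more than once.

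The study compared 3 groups by chromatin immunoprecipitation and sequencing (ChIP-seq), all in BJ cells: the control guide, PURPL guide 1 and PURPL guide 2. Each had 1 H3K9me3 library and 1 input library, 6 in all, so differences between the groups cannot be set against replicates, and p-values were not computed. On chromosomes 1 to 22 the lists held 22148 control peaks, 13980 guide 1 peaks and 11582 guide 2 peaks. The sequencing depth is unknown, and a control peak that is absent from its list may lie just under the authors' limit for calling it. The overlaps chose the regions, so the missing control peak, the distance to the control and the guide scores below are descriptions.

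H3K9me3 is laid down by methyltransferases such as SETDB1 and SUV39H1 and is bound by HP1 proteins, which pack the DNA into silent heterochromatin. In most cells it is dense over the satellite repeats that flank centromeres, over silenced transposons and over clusters of zinc finger genes. It is usually low over the bodies of active genes.

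No genome sequence was used here, so the bases under the regions are not printed. What could be read from RefSeq tables of build GRCh38.p14 is a microRNA that lies inside 1 region and the promoters that lie closest to regions in protein-coding genes. The region chr20:31606931-31607256 had scores of 30 with guide 1 and 12 with guide 2 and lay 74.4 kb from the nearest control peak. It holds the whole hairpin of MIR3193 (chr20:31607186-31607240, plus strand), shown because it is the only stretch of a region whose bases were given. Capitals in the mature form mark the seed, bases 2 to 8.
MIR3193 hairpin: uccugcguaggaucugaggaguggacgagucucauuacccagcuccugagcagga
hsa-miR-3193: uCCUGCGUaggaucugaggagu

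RefSeq promoter windows, the 250 bases before and the first bases after a gene's start, could be compared with 358 of the 363 regions, those on chromosomes with windows in the table used here. Of these 358, 0 touched a window, nor did either guide peak behind them. A window lay within 1000 bp of 2 (0.559%) and within 5000 bp of 8 (2.23%). The table lacks windows for some genes, as only 22 of the 30 protein-coding genes that hold a region had a start site in it. The counts can therefore miss promoters, such as that of MCL1. Of 7751 intersections with a control peak, 8 (0.103%) touched a window, 24 (0.31%) had one within 1000 bp and 73 (0.942%) within 5000 bp. Outside the gene-free stretches defined below, the shares within 5000 bp were 10% of 80 regions and 9.37% of 779 intersections with a control peak. The closest windows of protein-coding genes that hold a region were those of MARCKS, DUSP1, KLF6 and JUN, at 615, 944, 1043 and 3071 bp. Their 250 bases before the start are shown 5′ to 3′ on the strand of the gene, to give the DNA beside the regions described further on. These were chosen after the distances were seen.
MARCKS, chr6:113857095-113857344, plus strand: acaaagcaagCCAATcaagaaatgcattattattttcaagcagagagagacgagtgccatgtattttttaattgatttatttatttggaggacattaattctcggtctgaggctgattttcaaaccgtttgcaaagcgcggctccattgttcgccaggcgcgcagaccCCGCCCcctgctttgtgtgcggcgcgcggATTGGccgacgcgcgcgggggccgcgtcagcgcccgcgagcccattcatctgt
DUSP1, chr5:172771196-172771445, minus strand: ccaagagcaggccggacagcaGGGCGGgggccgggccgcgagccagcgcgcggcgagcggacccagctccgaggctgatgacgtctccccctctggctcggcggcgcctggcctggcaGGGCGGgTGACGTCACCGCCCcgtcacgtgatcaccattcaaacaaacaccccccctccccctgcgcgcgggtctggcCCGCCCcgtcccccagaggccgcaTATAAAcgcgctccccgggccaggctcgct
KLF6, chr10:3785210-3785459, minus strand: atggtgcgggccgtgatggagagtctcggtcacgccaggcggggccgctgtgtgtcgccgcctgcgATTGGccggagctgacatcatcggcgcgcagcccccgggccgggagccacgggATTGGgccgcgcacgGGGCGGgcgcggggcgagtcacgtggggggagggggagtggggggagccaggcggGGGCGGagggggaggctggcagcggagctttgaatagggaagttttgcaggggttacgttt
JUN, chr1:58784048-58784297, minus strand: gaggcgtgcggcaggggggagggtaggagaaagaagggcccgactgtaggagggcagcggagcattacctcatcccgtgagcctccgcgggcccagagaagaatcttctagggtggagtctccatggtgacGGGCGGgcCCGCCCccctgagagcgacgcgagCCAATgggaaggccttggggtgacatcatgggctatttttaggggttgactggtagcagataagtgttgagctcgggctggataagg

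Capitals mark 4 motifs searched on both strands, which overlap nowhere in these windows. The GC box GGGCGG occurs in all 4 windows, with 4 copies at DUSP1, and in 42.6% of the 35116 windows of the table. CCAAT occurs at MARCKS, KLF6 and JUN and in 32% of all windows. The TATA box TATAAA occurs only at DUSP1 of these 4 and in 10.7% of all windows. The cAMP response element TGACGTCA likewise occurs only at DUSP1 of the 4 and in 1.65% of all windows. A match is a description of the letters and shows no binding.

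Most regions lay beside a control peak. The distance from a region to the nearest control peak had a median of 1636 bp, with quartiles at 1110.5 and 2744.5 bp and a range of 123 to 1155465 bp. Of the 363 regions, 63 lay within 1000 bp, 165 between 1000 and 2000 bp, and 83 between 2000 and 5000 bp. A further 19 lay between 5000 and 20000 bp, and 33 lay farther out. Within 5000 bp of a control peak were therefore 311 regions (85.7%, 95% Wilson interval 81.7 to 88.9), and 229 (63.1%, 58 to 67.9) had a control peak within 5000 bp on both sides. The intervals cover counting error only. Of the peaks of a single guide with no partner in either other list, 56.6% with guide 1 and 62% with guide 2 lay within 5000 bp of a control peak. The regions lay mostly where control peaks are dense, as described below. Inside the gene-free stretches defined below, the median distance was 1504 bp, against 1265 bp for peaks of guide 1 alone and 1181 bp for guide 2 alone. Outside them it was 4357.5 bp, against 16112 and 40599.5 bp. Distances of regions count from the shared part and those of single peaks from the whole peak. The part of control peak density in this nearness was not tested.

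**Figure D1:**
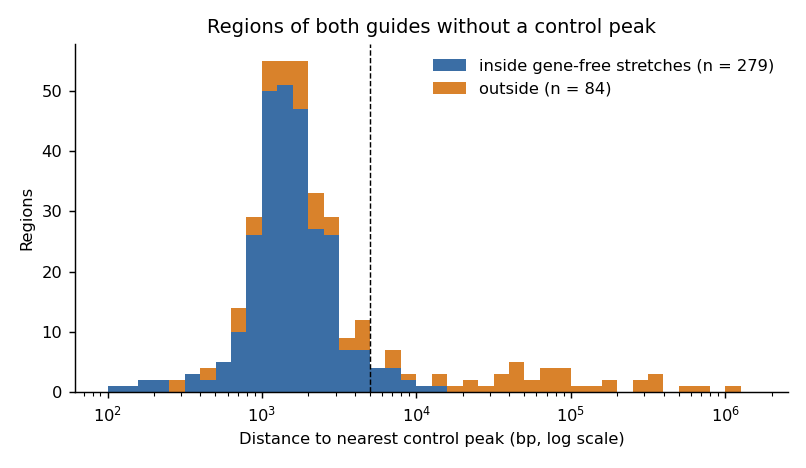
Number of regions (vertical axis) by distance from the region to the nearest control peak in bp (horizontal log axis), stacked by place; the dashed line is at 5000 bp. The 279 regions inside gene-free stretches reach no farther than 13633 bp, and the 33 regions beyond 20000 bp are all outside the stretches.

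At the edge of the rule, the guide peaks that came closest to a control peak without touching it were at chr21:5233707-5234105 (21 bp away, scores 18 and 14), chr7:60145101-60145359 (55 bp, 13 and 14) and chr9:60598026-60598948 (59 bp, 13 and 25). The intersections just beyond it shared 11, 21 and 22 bp with a control peak, at chr7:60081383-60081735 (scores 37 and 20), chr15:19437693-19437926 (24 and 47) and chr16:36950755-36950893 (18 and 45). The guide peaks of 15 regions stopped under 200 bp from a control peak. In another 280 intersections the shared part was itself clear of control peaks while an outer part of a guide peak was not.

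Gene-free stretches, defined as 1 Mb or more from the end of an annotated gene to the start of the next, held 279 of the 363 regions (76.9%, Wilson interval 72.3 to 80.9). On most chromosomes such a stretch spans the centromere and its satellite repeats. Reads cannot be placed surely among near-identical copies of a repeat, so places and distances there are those of the peak lists. Of the intersections with a control peak, 7484 of 8310 lay there (90.1%, 89.4 to 90.7). Intersections thus lacked a control peak in 3.59% of cases inside the stretches and in 9.23% outside. Peaks of a single guide with no partner in either other list lay inside less often in these lists, 31.1% of 2412 with guide 1 (29.2 to 32.9) and 48% of 1423 with guide 2 (45.4 to 50.6). As a background, 20.6% of all guide 1 peaks and 16.6% of all guide 2 peaks had no control peak.

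Inside the stretches the regions filled gaps in a dense row of control peaks. Their median distance to a control peak was 1504 bp, 267 of 279 had one within 5000 bp, and the median gap between the flanking control peaks, region included, was 5065 bp. The nearest control peak was itself covered in both guides for 128 of the 279 (45.9%, 40.1 to 51.7) and in neither for 81 (29%, 24 to 34.6). Of all control peaks inside the stretches, 51.8% were covered in both guides and 22.4% in neither. Outside the stretches the nearest control peak was covered in both guides for 11 of 84 regions (13.1%, 7.47 to 21.9) and in neither for 51 (60.7%, 50 to 70.5), against 5.79% and 78.4% of all control peaks there.

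The 12 regions of the stretches that lay more than 5000 bp from a control peak were on chromosomes 9, 10, 12, 17 and 18. The farthest, chr9:60558741-60558855, had scores of 38 and 31 and lay 13633 bp away. On chromosome 17, chr17:24783761-24784083 followed at 11977 bp with scores of 23 and 15. No region of the stretches lay 20000 bp or more from the control.

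**Figure D2:**
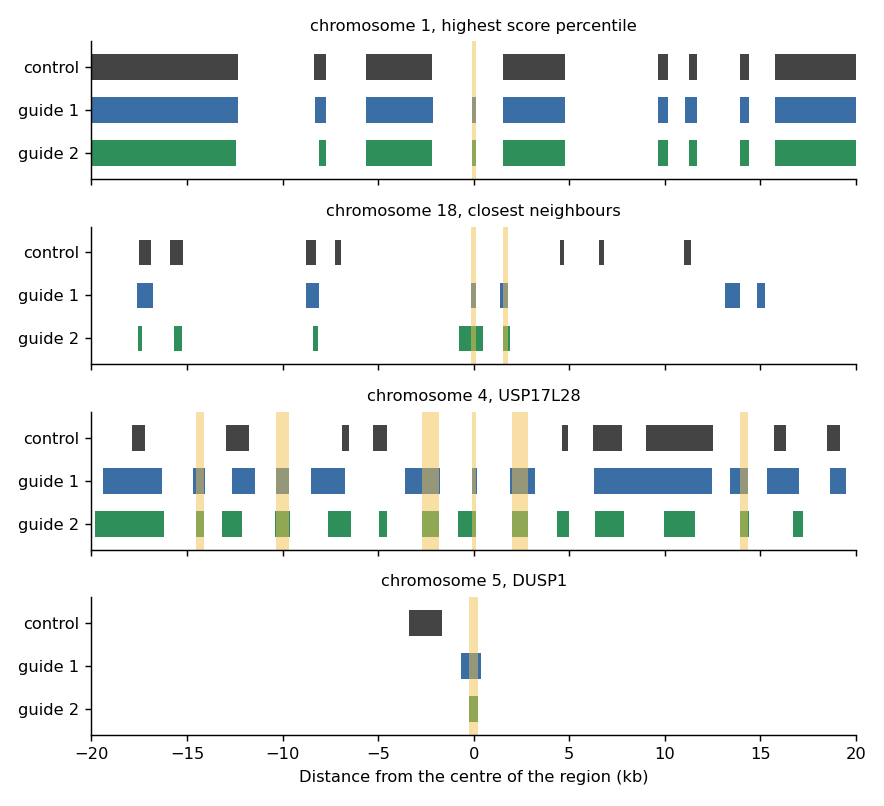
Peaks of the control, guide 1 and guide 2 (rows) within 20 kb of a region's centre (horizontal axis, kb), with each region of both guides shaded, at 4 places. On chromosome 1 the 8 control peaks recur in both guides and 1 narrow peak stands between them, on chromosome 4 there are 6 regions in the USP17L array, and at DUSP1 each list has 1 peak.

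Chromosome 18 held the most regions, 38, of which 37 lay in its stretch (chr18:15330264-20946905). There 10.6% of 349 intersections had no control peak (Wilson interval 7.79 to 14.3). Their scores were modest, from 11 to 61 with guide 1 and from 13 to 33 with guide 2 on the whole chromosome. A pair of neighbours, chr18:19476591-19476861 and chr18:19478280-19478502, had scores of 61 and 15 and of 51 and 24, and the nearest control peaks were 4369 and 2728 bp away. A group of 3 lay within 4.79 kb at chr18:20393258-20398043, with guide 1 scores of 18 to 29 and guide 2 scores of 16 to 24. The single region of the arms, chr18:59407625-59408565, had scores of 16 and 22.

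The share of intersections without a control peak varied between the stretches. Of the 22 stretches with at least 50 intersections, chromosome 12 had the highest share, 9 of 79 (11.4%, 6.11 to 20.3), followed by chromosome 18 and by the stretch chr7:57868450-60991901 with 25 of 248 (10.1%, 6.92 to 14.5). The lowest were chromosome 6 with 0 of 370 (0%, Wilson interval up to 1.03, and up to 0.811% by the limit of 3 counts that a count of 0 allows), chromosome 8 with 1 of 513 (0.195%, 0.0344 to 1.1) and chromosome 20 with 4 of 527 (0.759%, 0.296 to 1.94). The Wilson intervals of the 3 highest and the 3 lowest do not overlap, but these were picked as the extremes of the 22 shares. The intervals cover counting error only and count neighbouring intersections as separate draws.

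The mean width of control peaks was 4678 bp on chromosome 6, 4366.1 bp on chromosome 8 and 3991.6 bp on chromosome 20, against 979.8 bp on chromosome 12, 1241.5 bp on chromosome 18 and 1409 bp on chromosome 7. In the 6 stretches with a mean above 2500 bp the share was at most 2.6%, and in the other 16 it ran from 1.72% to 11.4%. The 1.72% was that of chromosome 10, whose control peaks were also narrow, 1253.9 bp on average. Over the 22 stretches Spearman's rho of mean control width and share was -0.64, a description only. The stretches share their 3 libraries, and the part of control peak width in these shares was not tested.

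**Figure D3:**
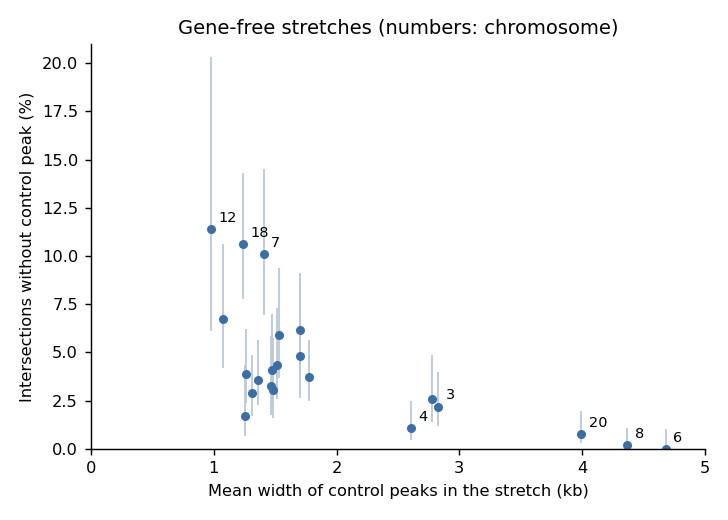
Share of guide 1 and guide 2 intersections that had no control peak (vertical axis, %, with 95% Wilson intervals) against the mean width of the control peaks (horizontal axis, kb) in 22 gene-free stretches, with 8 chromosomes numbered. Chromosomes 20, 8 and 6 have the widest control peaks and the lowest shares, chromosomes 12, 18 and 7 have the highest shares at mean widths under 1.5 kb, and chromosome 10 has narrow control peaks and a low share of 1.72%.

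**Figure D4:**
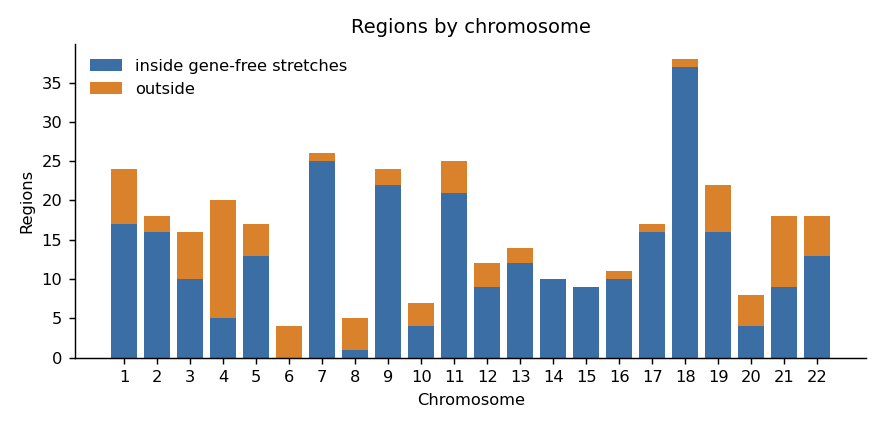
Number of regions (vertical axis) on each chromosome (horizontal axis), stacked by place. Chromosome 18 has 38 regions, chromosome 6 has 4 with none in its stretch, and chromosome 4 has the most outside the stretches, 15.

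The guide peaks behind the regions ranked a little below the middle of their own lists. The deposited score, a whole number of at least 10 whose scale is not given in the sources used here, had a median of 21 with guide 1 and 20 with guide 2, against 27 and 25 for intersections with a control peak. As ranks within each list the medians were percentile 44.5 and 39, against 64.3 and 58.9. Peaks of a single guide with no partner in either other list ranked lower, at a median of percentile 26 with guide 1 and 28.5 with guide 2. In 98 regions (27%, 22.7 to 31.8) both scores reached the median of their list, against 49.3% of the intersections with a control peak. The guide peaks were also narrower, with median widths of 566 and 515 bp against 1357.5 and 1109 bp. Among the intersections with a control peak, a guide peak in several pairs counted once for each. In the stretch of chromosome 8, for example, 513 intersections stood beside 401 guide 1 and 473 guide 2 peaks. The scores, ranks and widths are descriptions, as the peak calls chose the regions.

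The shared part of the guide peaks had a median of 279 bp and ran from 6 to 1609 bp. In 187 regions (51.5%, 46.4 to 56.6) it covered at least 50% of each guide peak. The scores of the paired peaks went together loosely, with Spearman's rho of 0.38 over the 363 regions, 0.40 inside the stretches and 0.16 outside, given as descriptions. The guide 1 peak had the higher percentile in 203 of 363 regions.

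**Figure D5:**
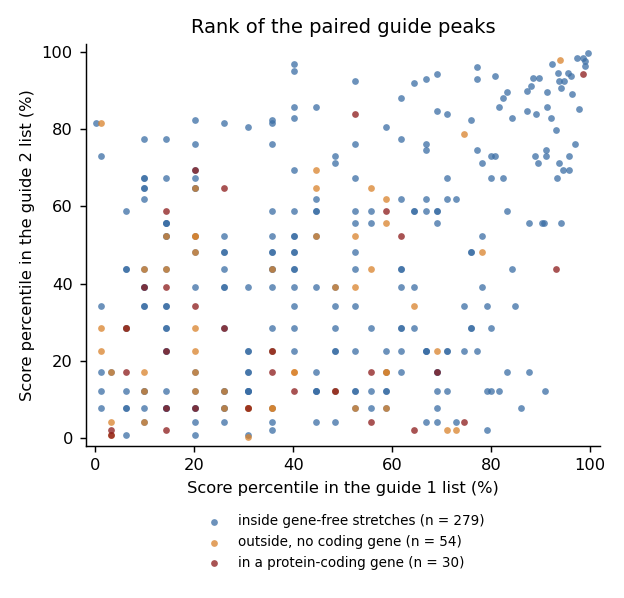
Score percentile of the guide 2 peak in its list (vertical axis, %) against that of the guide 1 peak (horizontal axis, %), 1 point per region, coloured by place. Of the 14 regions with both percentiles at or above 90, 12 lie inside gene-free stretches, and the others are the DUX4 region at 98.5 and 94.3 and the chromosome 16 region near IRF8 at 93.8 and 97.9.

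The strongest regions were narrow. Ranked by the lower of their score percentiles, the first 10 all had guide peaks of 219 to 250 bp, while only 19 of the 363 regions had peaks of at most 250 bp in both guides. Of all peaks of this width, 10.3% of the control, 13.4% of the guide 1 and 13.5% of the guide 2 peaks ranked at or above percentile 90 of their list. Of these 10 regions, 8 lay in gene-free stretches, where the limit on read placement given above applies, and 9 had a control peak within 5000 bp.

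The first of them, chr1:143235684-143235909, had scores of 458 with guide 1 and 378 with guide 2, percentile 99.6 in both lists. Control peaks lay 2058 bp to the left and 1429 bp to the right, and the map of peaks around it shows that both guides also covered those 2 neighbours. Next came chr14:17484060-17484294 (scores 206 and 169), chr19:25001568-25001801 (236 and 120) and chr13:17361784-17362006 (129 and 164), each between 1037 and 1060 bp from a control peak. A second place on chromosome 1, chr1:122596128-122596358, had 267 and 96 and lay 999 bp away.

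The other 5 of the first 10 included 2 more places in the stretch of chromosome 19, at chr19:25501856-25502078 (scores 97 and 77) and chr19:25656698-25656916 (76 and 77). On chromosome 10, chr10:41131032-41131274 had 107 and 69 and lay 4566 bp from the control. Outside the stretches stood the DUX4 region, described below, and chr16:85972668-85972888. The latter had scores of 79 and 130, lay 47302 bp from a control peak and fell between genes, 50.1 kb from IRF8, a transcription factor gene of blood cells. It was the only one of the 10 without a control peak within 5000 bp.

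Outside the stretches, 84 regions lay at a median of 4357.5 bp from a control peak, and 40 of them had none within 5000 bp. Their scores were lower than inside, with a median of 18.5 with guide 1 and 17 with guide 2 against 22 and 21. Chromosome 4 had 15 of them, more than any other chromosome. An annotated gene was overlapped by 43 of the 84 (51.2%, 40.7 to 61.6) and a protein-coding gene by 30 (35.7%, 26.3 to 46.4). Among the intersections with a control peak outside the stretches these shares were 71.1% and 59.6%.

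The regions overlapped 45 annotated genes, 30 of them protein-coding, 6 long non-coding RNA genes, 5 transcribed pseudogenes and 1 other pseudogene, 2 ribosomal RNA genes and 1 microRNA gene. Of the 30 coding genes, 14 had no control peak touching the body and 16 had at least 1. The regions were chosen for lacking a control peak, and gene length was not taken into account. The share of all coding genes without a control peak was not counted, so nothing particular to these genes is read from the 14. The 14 were JUN, MCL1, MYH15, PDE5A, MARCKS, BNIP3L, KLF6, ELF1, OPRL1 and the USP17L members 5, 19, 26, 28 and 30, copies of a deubiquitinase gene. The table of genes used here has no exons, so an exonic or intronic place is not given.

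JUN, a subunit of the AP-1 transcription factor, had a region at chr1:58779612-58780926 that reached into the end of the gene (chr1:58780791-58784047, minus strand) and was 1315 bp long. Its scores were 32 with guide 1 and 13 with guide 2, and the nearest control peak was 45.8 kb away. DUSP1, a phosphatase that turns off MAP kinases, had scores of 24 and 16 at chr5:172769736-172770201, in the body of the gene 0.994 kb from its start site. A control peak of 1702 bp, chr5:172766584-172768285, lay 1450 bp from the region, with 190 bp inside the end of the gene and the rest beyond it. Guide 1 ranked JUN at percentile 74.4 and DUSP1 at 55.7 of its list, while guide 2 ranked them at 4.2 and 17.2.

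KLF6, a zinc finger transcription factor of the Krüppel-like family, had scores of 13 and 18 at chr10:3783819-3784116, 1.09 kb from its start site and 171 kb from a control peak. MCL1, an inhibitor of apoptosis, had 12 and 12 over only 40 bp at chr1:150578245-150578284, 353.1 kb from a control peak. Its peaks stood at percentile 3.1 and 2 of their lists, close to the lowest score that was deposited. MARCKS, an actin-binding substrate of protein kinase C, had 18 and 14 at chr6:113858010-113858177, 0.665 kb from its start site and 33.9 kb from the control. ELF1, an ETS-family transcription factor, had 15 and 12 at chr13:41047666-41047851, 99.7 kb from the control.

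BNIP3L, a receptor for the removal of mitochondria, held the region farthest from any control peak, at 1155465 bp. It lay at chr8:26397163-26397546 with scores of 16 and 14, percentile 20.2 and 7.7. Of the other 9 regions of the 10 farthest, VSTM2B-DT, a long non-coding RNA gene, had scores of 27 and 19 at 720023 bp. OPRL1, the receptor of the peptide nociceptin, had 73 and 21 at 368251 bp, percentile 93 and 43.7, the highest guide 1 score of the 10. KLF6 and MCL1 were also among these 10.

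LOC124903876, a long non-coding RNA gene on chromosome 1, had scores of 16 and 23 at 190464 bp. The remaining 4 of the 10 lay between genes. They were chr12:126583665-126584067 (scores 25 and 24), chr12:13395760-13395871 (15 and 23), chr3:80876717-80876941 (25 and 16) and chr1:225982023-225982263 (20 and 16). Their distances to the control were 592301, 341973, 301471 and 277297 bp. The last lay 438 bp from the nearest protein-coding gene, SDE2.

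Some long genes carried regions far from the start site used. Distances count from 1 start per gene, although the promoter table can hold more. For PHACTR2 the start used lay 146.2 kb from the region, while another of its windows lay 5041 bp away. PDE5A, the phosphodiesterase of cyclic GMP, had scores of 13 and 16 at 63.9 kb from the start used. MYH15, a myosin heavy chain gene, had 15 and 17 at 63.2 kb from a start that lies inside the gene. MAGI2, a synaptic scaffold gene of 1436.6 kb, had 24 and 13 at 785.8 kb. Of the 22 coding genes with a start site in the promoter table, 4 had the region within 5000 bp of the start used, and these were JUN, DUSP1, KLF6 and MARCKS.

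All 4 regions of chromosome 6 lay in protein-coding genes, MARCKS and 3 long ones. EXOC2, a subunit of the exocyst that tethers secretory vesicles, had 15 and 25, TBC1D32, a gene of cilium formation, had 15 and 20, and PHACTR2, a regulator of actin and phosphatase, had 20 and 15. They lay 20.7, 39.5 and 102.9 kb from a control peak.

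ZEB1, a repressor of epithelial genes, had scores of 15 and 14 and lay 0.256 kb from a control peak, with 6 control peaks in its body. SYN3, a synapsin gene, had 12 and 11 at 0.277 kb, and FRAS1, a gene of the extracellular matrix, 16 and 29 at 2.97 kb. RAG1, a recombinase of lymphocytes, had 19 and 16 at 40.8 kb, ERC1, a scaffold gene, 14 and 20 at 29.2 kb, and TTC34 23 and 41 at 7.76 kb. In all, 13 of the 30 coding genes had the region within 5000 bp of a control peak.

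Of 559 zinc finger genes on chromosomes 1 to 22, a main site of H3K9me3 in gene bodies, 3 (0.537%) carried a region, against 30 (0.157%) of all 19126 protein-coding genes. An intersection of both guides with a control peak was carried by 184 (32.9%) of the zinc finger genes and 289 (1.51%) of all coding genes. The 3 were ZKSCAN7 (scores 17 and 18), ZNF791 (17 and 27) and ZNF780A (16 and 19), at 0.638, 0.445 and 1.13 kb from a control peak. Each also had a control peak in its body.

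Genes of H3K9 methylation had 1 member of 21 (4.76%) with a region, beside the 0.157% of all coding genes, and 1 of 21 with an intersection that had a control peak. The 4.76% rests on 1 gene of 184.5 kb, gene length was not taken into account, and no excess is read from it. The member with a region was KDM4B, a demethylase of this mark, with scores of 22 and 15 at chr19:5076305-5076537, 13.1 kb from the nearest control peak and with 2 control peaks elsewhere in its body. Of 53 clustered protocadherins and 19 p53 targets, 0 held a region and 0 held an intersection with a control peak, and at the share of all coding genes, 0.157%, lists of this size would be short of a single gene. PURPL itself (chr5:27472292-27496401) held 0 control, 0 guide 1 and 0 guide 2 peaks, and the nearest region lay 19.6 Mb away.

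Tandem arrays of near-identical genes held several regions, and reads cannot be placed surely among such copies. In the USP17L array 8 regions lay from chr4:9228264 to 9363847, with scores of 16 to 31 and 12 to 25. Of its members, USP17L5 had scores of 25 and 25, USP17L19 26 and 23, and USP17L30 19 and 17. There 27.6% of 29 intersections had no control peak, where 27 control peaks, 32 guide 1 peaks and 33 guide 2 peaks stood. Among all intersections outside the stretches this share was 9.23%. The bounds given are those of the outermost regions, and the place was named after the regions were seen. Both can raise the share, so it is a description only. DUX4, a transcription factor gene of the D4Z4 repeat near the end of chromosome 4, had a region at chr4:190181002-190181220 with scores of 199 and 74, the strongest in any coding gene. A control peak lay 1008 bp away.

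The short arm of chromosome 21, which carries ribosomal RNA genes, held all 9 regions of that chromosome outside its stretch. They lay between 5220178 and 8400840 bp with scores of 12 to 22 and 13 to 29, and 455 to 8839 bp from a control peak. Here 9 of 26 intersections (34.6%) had no control peak, beside 9.23% of all intersections outside the stretches. This place too was named after the regions were seen, with the outermost regions as its bounds, so its share is a description only. One of the 9 regions, chr21:8400632-8400840, lay in RNA45SN3 and RNA28SN3, with scores of 22 and 15 at 853 bp from a control peak.

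The longest regions were spread over the genome. After chr19:8753915-8755523, between genes with 1609 bp and scores of 23 and 14, came chr3:93304763-93306310 with 1548 bp (21 and 15) and chr17:25845870-25847262 with 1393 bp (14 and 20), both in gene-free stretches. JUN was the next with 1315 bp. The fifth, with 1289 bp and scores of 17 and 14, lay at chr21:8242155-8243443 in the pseudogene CDC27P9.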

How the data were processed

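H3K9me3 ChIP-seq libraries of 3 BJ cell lines, each with its input, were analysed from 1 peak list per line. The authors' tools, per the submitters' processing notes, included MACS2 2.2.9.1, a peak caller, and Bowtie2 2.4.2, an aligner, beside deepTools 3.5.1 and GATK. The same notes name GRCh38.p13 (hg38). The sources used here give neither the caller's settings nor the depth. The score deposited by the authors for each peak ranked peaks within its list, over all sequences of the list. Lists were assigned by their names against the sample titles, and the peak names inside carry other guide names. Genes and promoter windows came from RefSeq tables of GRCh38.p14, whose chromosomes have the coordinates of GRCh38.p13. Distances count the bases between edges.

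Regions named are the 10 highest by the lower score percentile, the 10 farthest from a control peak, the 5 longest, all in protein-coding genes by gene name with values for at least the 10 of highest rank, and the chromosomes with most regions in all and outside the stretches. Others were named after their values were seen. Regions, stretches and gene lists were chosen with earlier results of these data known. Wilson intervals of 95% cover counting error only. Overlaps and intervals were computed in Python 3.11.15 with pandas 2.3.3, numpy 2.4.6 and scipy 1.17.1, figures with matplotlib 3.10.9, and the overlap code was tested on simulated data. Alternatives varied the overlap, the control distance, the score limit, the chromosomes, merging, the stretch length and the genes counted.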

Additional observations from a re-analysis of the deposited data

Results flagged for a closer look

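Sequences outside chromosomes 1 to 22 also held such regions. Chromosome X had 6 among 22 intersections of the guides (27.3%), with scores of 15 to 31 and 17 to 34. Unplaced, unlocalised and patch sequences had 21 among 241 (8.71%), with scores of 12 to 37 and 11 to 35. These sequences were not part of the comparison above, and patch sequences repeat parts of the chromosomes.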

How the results depend on the processing

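The number of regions depends on how strictly overlap and absence are read. From 363 it went to 187 when the guides had to share at least 50% of each peak and to 51 when regions with a control peak up to 5000 bp from either guide peak were left out. It rose to 643 when only the intersection had to be clear of the control, and was 98 with guide peaks limited to their list's median score and 232 with all 3 lists so limited. The share in gene-free stretches, 76.9%, was 21.6%, 81%, 88.8% and 85.3% under the 5000 bp, intersection, guide score and 3-list settings. The share overlapping a gene, 11.8%, was 47.1%, 4.08% and 5.6% under the 5000 bp, guide score and 3-list settings, and 8.26% for protein-coding genes alone. The share within 5000 bp of a control peak, 85.7%, was 79.7% of the 256 regions whose guide peaks lay more than 1000 bp from a control peak, 91.9% for the intersection, 91.8% for guide scores and 79.3% for the 3 lists. The median distance, 1636 bp, was 2091 bp for those 256 regions, 44702 bp under the 5000 bp setting, 1027 bp for the intersection, 1532 bp for guide scores and 2197 bp for the 3 lists. The share with both scores at their list's median, 27%, was 36.4% with 50% overlap and 15.7% under the 5000 bp setting, and by construction 100% under both score limits. The other 30 of 56 values lay within the counting interval of the reported value or within 1.5 times the count. The settings that leave out regions near control peaks, or that limit scores, change these values by their own construction. No paired analysis was possible because each group had 1 library. Without read depth, an absent control peak cannot be told apart from a weak one.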
